A study of Homo sapiens with 6 samples.

Results

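The 36 genes described here are 22 genes of glucose uptake, glycolysis and pyruvate handling and 14 genes of the hypoxia response, taken by symbol from a fixed list. Each of the 36 had a row in all 3 deposited tables, among 23519 genes found in all of them. They were measured in SKM-1, an established cell line of human acute myeloid leukaemia with a preceding myelodysplastic syndrome. The 6 libraries were made from poly-A RNA: 2 untreated, 2 treated with BOR, 1 treated with VEM and 1 treated with VEM and BOR together (VEM+BOR). VEM is vemurafenib, an inhibitor of RAF kinases. The labels do not spell out BOR, and the sources used here give neither doses nor treatment times. The title of the series names senescence and HIPPO signalling under vemurafenib.

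Glycolysis splits glucose into pyruvate in the cytosol. Glucose enters through SLC2A transporters, is trapped and activated by hexokinase and phosphofructokinase, and is then converted to pyruvate by enzymes from GAPDH to pyruvate kinase. Lactate dehydrogenase and the SLC16A3 transporter dispose of pyruvate as lactate, while PDK1 inhibits pyruvate dehydrogenase, which uses pyruvate in mitochondria. Hypoxia-inducible factor (HIF) is a transcription factor whose alpha subunit, encoded by HIF1A, is made constantly and destroyed when oxygen is present, after hydroxylation by the EGLN enzymes. When oxygen falls, or when the alpha subunit is stabilised in another way, HIF binds the short motifs ACGTG and GCGTG and switches on both glycolysis genes and regulators such as VEGFA, BNIP3, BHLHE40 and the EGLN genes themselves. Leukaemia cells of the marrow are known for a high rate of glycolysis.

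Values are size-factor normalised read counts, with the 6 libraries brought to 1 scale, and depth was 17252404 to 18507606 reads assigned to genes per library. One BOR library, BOR 2, stood apart from the other 5. Its Pearson correlation with them over log2 values ran from 0.861 to 0.880, where the others correlated with each other at 0.964 to 0.985. Mitochondrial transcripts took 3.14% of its reads, against 4.23% to 5.4% elsewhere. The myeloid markers of the line were present in all libraries (8 of 8 measured). PTPRC, the pan-leukocyte antigen CD45, was 269 in BOR 2 against 2919 to 4575 in the other libraries, while MPO, the myeloperoxidase of granulocyte precursors, was 41948 there against 4787 to 18695. For B, T, erythroid, epithelial, fibroblast and endothelial cells 1 or 2 of 3 markers each had a row in all tables, and their sums per cell type lay between 2.70 and 424 in every library. The part of these differences in the results was not tested. Because BOR 1 and BOR 2 differ so widely, every BOR result is given for each library on its own, and a value of BOR 2 describes that library, not the condition. The sources used here do not say whether BOR 2 was handled differently, and whether its label is right was not tested.

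Promoter sequence is shown for 6 genes on which the results turn, so that the HIF core letters can be seen beside the RNA values. BNIP3, PGK1, LDHA, PFKFB4 and EGLN3 are genes whose RNA was high in BOR 2, and HIF1A is the gene that moved the other way there. The stretches come from the RefSeq promoter windows (250 bases before to 50 after a start site, GRCh38.p14) and are limited to bases outside annotated exons. They are written 5′ to 3′ on the gene's strand. Capitals mark ACGTG and GCGTG on either strand, the latter read as CACGT and CACGC. The stretches are BNIP3 at chr10:131982014-131982173 (minus strand), PGK1 at chrX:78103998-78104173 (plus), LDHA at chr11:18394313-18394387 (plus), PFKFB4 at chr3:48556924-48556982 (minus), EGLN3 at chr14:33951082-33951324 (minus) and HIF1A at chr14:61695263-61695512 (plus).
BNIP3: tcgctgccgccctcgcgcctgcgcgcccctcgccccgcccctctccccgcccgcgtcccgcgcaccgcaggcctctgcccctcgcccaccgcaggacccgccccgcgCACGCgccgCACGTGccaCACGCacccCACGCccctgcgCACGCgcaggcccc
PGK1: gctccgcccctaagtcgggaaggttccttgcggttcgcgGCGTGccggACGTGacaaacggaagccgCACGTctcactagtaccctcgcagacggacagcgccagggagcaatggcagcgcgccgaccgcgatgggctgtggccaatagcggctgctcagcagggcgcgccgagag
LDHA: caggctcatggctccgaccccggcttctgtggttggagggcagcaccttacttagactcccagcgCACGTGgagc
PFKFB4: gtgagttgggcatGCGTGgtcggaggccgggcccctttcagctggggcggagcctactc
EGLN3: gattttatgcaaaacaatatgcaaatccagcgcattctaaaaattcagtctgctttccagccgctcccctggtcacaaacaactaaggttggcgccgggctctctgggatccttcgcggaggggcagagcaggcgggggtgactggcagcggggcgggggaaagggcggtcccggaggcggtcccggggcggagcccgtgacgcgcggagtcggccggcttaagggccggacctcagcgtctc
HIF1A: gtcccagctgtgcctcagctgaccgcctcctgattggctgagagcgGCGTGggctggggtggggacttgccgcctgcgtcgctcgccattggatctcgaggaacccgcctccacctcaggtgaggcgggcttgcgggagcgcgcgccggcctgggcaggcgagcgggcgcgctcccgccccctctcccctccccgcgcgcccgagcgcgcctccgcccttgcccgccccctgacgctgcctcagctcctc
The BNIP3 stretch held GCGTG 4 times and a CACGTG palindrome, which counts as ACGTG on both strands, 133 and 134 bases before the start site. PGK1 held ACGTG at 183 and 202 bases and GCGTG at 211 bases before its start site, and LDHA held the CACGTG palindrome at 184 and 185 bases. PFKFB4 held GCGTG 166 bases before its start site, EGLN3 had neither motif in its stretch, and HIF1A held GCGTG 204 bases before its start site. RefSeq windows were matched for 32 of the 36 genes (62 windows), and SLC2A3, VEGFA, BNIP3L and NDRG1 had no entry. ACGTG lay in 18 of 47 windows of glycolysis genes (38.3%) and in 6 of 15 windows of hypoxia genes (40%), against 21.4% of all 35116 windows. For GCGTG the shares were 38.3%, 46.7% and 36.5%. Base composition was not matched, several windows belong to 1 gene, and a match is a run of letters, not a binding site.

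The first comparison set BOR against untreated cells. In BOR 2 the genes of both lists stood far above the untreated libraries, and in BOR 1 they did not. Relative to the untreated mean, 21 of the 22 glycolysis genes and 13 of the 14 hypoxia genes were at least 2-fold higher in BOR 2, against 16.4% of 15462 genes. No glycolysis gene and 1 hypoxia gene were at least 2-fold lower there (25.5% of all genes). The genes 2-fold higher in BOR 2 were also above both untreated libraries, where 43.8% of all genes were above and 41.7% below. In BOR 1 none of the 36 was 2-fold higher (1.27% of all genes) and 1, ADM at 1 read, was 2-fold lower (1.4%). The exceptions in BOR 2 were the muscle-type phosphofructokinase PFKM, which lay within the untreated range, and HIF1A, which was lower. The 36 genes took 4.70% of the reads of BOR 2 (95% Wilson interval 4.69 to 4.71), against 1.26% to 1.48% in the other 5 libraries. These intervals cover counting error only. In bulk RNA, a change in RNA per cell and a change in the share of cells that carry the RNA cannot be told apart.

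When BOR 2 alone was set against the untreated pair with limma, 18 of 22 glycolysis genes and 13 of 14 hypoxia genes rose past an adjusted p of 0.05, and 1 hypoxia gene, HIF1A, fell. Of the 15371 genes tested, 9.74% rose and 16.3% fell. In what follows, "rose" and "fell" in BOR 2 refer to that test, which assumes that a lone library varies as the untreated pair does. BOR 1 alone gave 0 of 35 genes tested and 0 of 15383 genes overall by limma, of which 44 were higher and 17 lower at an unadjusted p under 0.05. Fitted as a pair, the BOR libraries gave 0 of the 36 genes and 0 of 15382 genes overall (0% in each direction), with 31 higher and 7 lower at an unadjusted p under 0.05, none of them among the 36. Both BOR libraries were above both untreated ones for 3 glycolysis and 4 hypoxia genes (11.7% of all genes), and below for 0 (8.24%). On recovered reads edgeR called 0 genes and DESeq2 called 18, SLC2A3 and BHLHE40 among them. The authors' deposited table also has 18 genes past that threshold, with adjusted p-values of 0.00564 for SLC2A3 and 0.0160 for BHLHE40. For BOR 2 alone, edgeR and DESeq2 each called 35 of the 36, all but PFKM. Testing genes down to a mean value of 1 instead of 10 left 0 genes called by limma. Scaling to library totals lowers every BOR 2 value by 0.60 on the log2 scale, and 34 of the 36 then rose and 1 fell, with 5.07% of all genes higher and 27.3% lower.

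**Figure D1:**
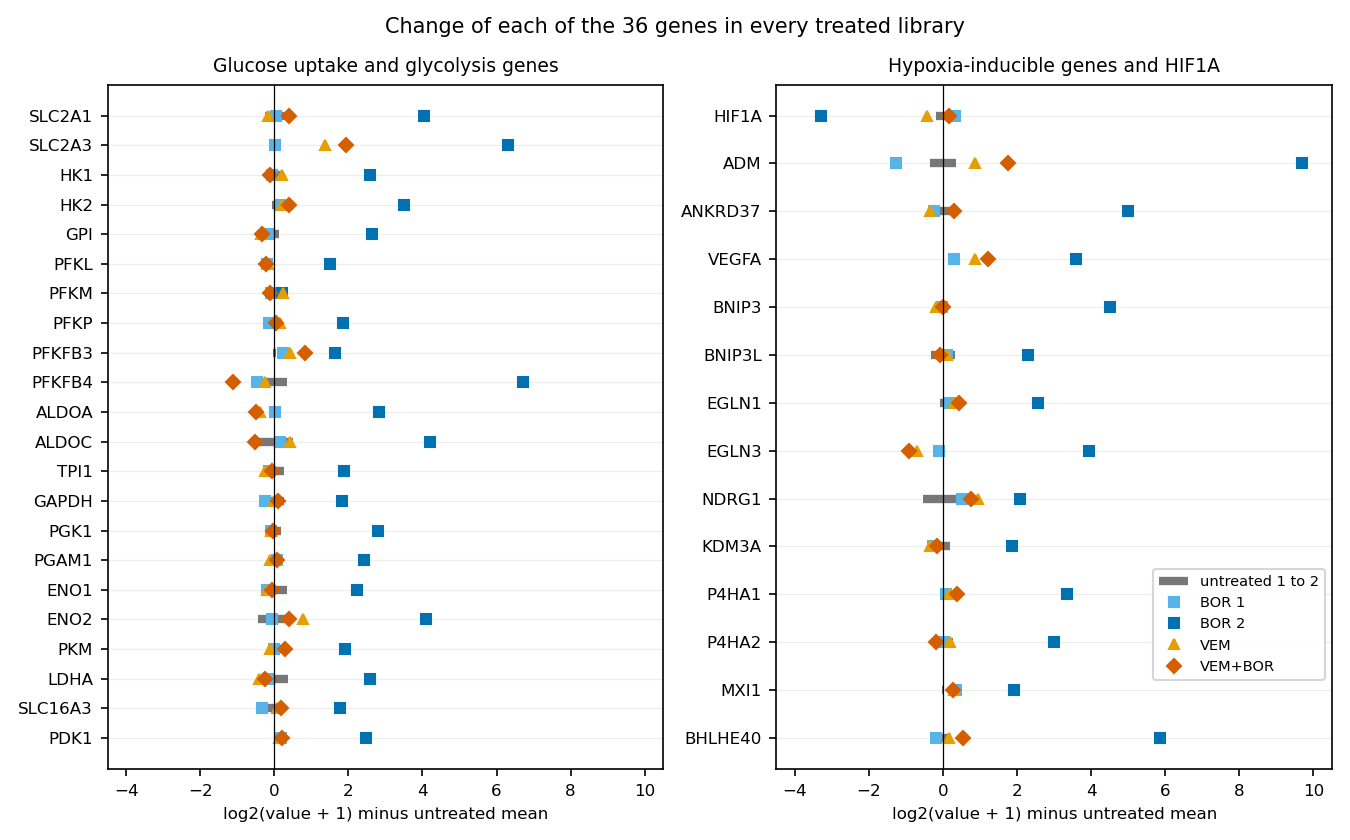
Each row is 1 gene and the horizontal axis is the difference in log2(value + 1) from the untreated mean. Grey bars span the 2 untreated libraries, and each symbol is 1 treated library. The dark blue squares of BOR 2 lie to the right for all genes but PFKM (0.20) and HIF1A (-3.30), while BOR 1 stays between -1.27 (ADM) and 0.52 (NDRG1).

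Both glucose transporters were among the genes that rose. SLC2A3 (ENSG00000059804, chr12:7919230-7936275, minus strand), a high-affinity transporter, was 268 and 292 in the untreated libraries, 282 in BOR 1, 22388 in BOR 2, 719 in VEM and 1075 in VEM+BOR. BOR 1 lay between the untreated libraries, BOR 2 was 79.9-fold above their mean, and VEM and VEM+BOR were above both of them. The BOR 2 change was 6.32 on the log2 scale (SE 0.35, limma adjusted p = 3.25e-05), the 15th highest of 15462 genes. SLC2A1 (ENSG00000117394, chr1:42925375-42959176, minus strand), the widely expressed basal transporter, was 1253 and 1784 in the untreated libraries, 1558 in BOR 1, 24428 in BOR 2, 1323 in VEM and 1970 in VEM+BOR. Only BOR 2 left the untreated range by more than the spread of that pair, with a log2 change of 4.03 (SE 0.40, limma adjusted p = 0.000257). Per kilobase of exon, SLC2A3 made up 11.2% to 14.1% of the pair in the untreated and BOR 1 libraries, 41.3% in BOR 2, 29.4% in VEM and 29.5% in VEM+BOR.

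Of the 9 genes that carry glucose from hexokinase to triose phosphate, 8 rose in BOR 2. Hexokinase 2 (HK2), the isoenzyme most often raised in tumours, was 2600 and 2831 in the untreated libraries, 3017 in BOR 1, 31035 in BOR 2, 3154 in VEM and 3568 in VEM+BOR. HK2 in BOR 2 stood 11.4-fold above the untreated mean, and the other 3 treated libraries lay slightly above both untreated ones. ALDOC (ENSG00000109107, chr17:28573115-28577264, minus strand), the brain-type aldolase, was 674 and 333 in the untreated libraries, 526 in BOR 1, 8794 in BOR 2, 638 in VEM and 329 in VEM+BOR. It rose by 4.21 on the log2 scale in BOR 2 (SE 0.44, limma adjusted p = 0.000297), although the untreated libraries themselves differed by 1.01. ALDOA, the main aldolase of most tissues, was 278 and 316 in the untreated libraries, 299 in BOR 1, 2120 in BOR 2, 228 in VEM and 211 in VEM+BOR. Its level is uncertain, because 53.5% of its exon bases are shared with other annotated genes, mainly AC093512.2 on the same strand. HK1, GPI, PFKL, PFKP and TPI1 rose by 1.51 (PFKL) to 2.64 (GPI) in BOR 2. PFKM, the exception, was 1536 and 1110 in the untreated libraries and 1499 in BOR 2, a log2 difference of 0.20 (limma adjusted p = 0.709) that turned to -0.40 when scaled to library totals. It is named because it stood alone, after its values were seen.

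PFKFB enzymes set the level of fructose 2,6-bisphosphate, the strongest activator of phosphofructokinase. PFKFB4 (ENSG00000114268, chr3:48517684-48562015, minus strand) was 349 and 218 in the untreated libraries, 199 in BOR 1, 28991 in BOR 2, 232 in VEM and 127 in VEM+BOR. It had the largest change of the glycolysis genes in BOR 2, 102-fold over the untreated mean or 6.71 on the log2 scale (SE 0.39, limma adjusted p = 3.25e-05). BOR 1 and VEM+BOR were below both untreated libraries, so the BOR-treated libraries lay on opposite sides of untreated cells. PFKFB3 (ENSG00000170525, chr10:6144934-6254644, plus strand), the sister enzyme with the higher kinase activity, was 1437 and 1351 in the untreated libraries, 1645 in BOR 1, 4381 in BOR 2, 1876 in VEM and 2462 in VEM+BOR. All 4 treated libraries were above both untreated ones, and BOR 2 rose by 1.65 (SE 0.35, limma adjusted p = 0.00700). Per kilobase of exon, PFKFB4 was the minor gene of this pair in 5 libraries, at 4.90% to 19.6%, and the major one in BOR 2, at 86.9%.

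Of the 6 genes from GAPDH to pyruvate kinase, 3 rose by limma in BOR 2, and all 6 were at least 2-fold above the untreated mean. ENO1, the enolase of most tissues, was 43349 and 70360 in the untreated libraries, 48251 in BOR 1, 259567 in BOR 2, 48331 in VEM and 53325 in VEM+BOR. BOR 2 was 4.57-fold above the untreated mean and all other treated libraries lay within the untreated range. With an SE of 0.91 the BOR 2 change of ENO1, 2.24 on the log2 scale, missed the limma threshold (adjusted p = 0.0960). GAPDH (1.82, adjusted p = 0.103) and PKM, the pyruvate kinase gene (1.91, adjusted p = 0.0707), also missed it by limma, and edgeR and DESeq2 called all 3. ENO2 (ENSG00000111674, chr12:6913745-6923698, plus strand), the neuronal enolase, was 402 and 219 in the untreated libraries, 283 in BOR 1, 5109 in BOR 2, 510 in VEM and 389 in VEM+BOR. It rose by 4.10 in BOR 2 (SE 0.42, limma adjusted p = 0.000294), yet made up only 2.37% of the enolase pair per kilobase there. PGK1 and PGAM1, the kinase and mutase of phosphoglycerate, rose by 2.79 and 2.43. GAPDH, PGK1, ENO1, LDHA and PGAM1 have processed pseudogenes, and reads shared with these copies cannot be told apart here.

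Genes that decide the fate of pyruvate rose as well, 3 of 3. LDHA (ENSG00000134333, chr11:18394388-18408425, plus strand), which turns pyruvate into lactate, was 16293 and 27411 in the untreated libraries, 18685 in BOR 1, 127792 in BOR 2, 15797 in VEM and 17621 in VEM+BOR. The BOR 2 change was 2.60 (SE 0.69, limma adjusted p = 0.0206), and VEM was just below the untreated range. The lactate exporter SLC16A3 rose by 1.76. PDK1, which inhibits pyruvate dehydrogenase, rose by 2.49, from 399 and 405 in the untreated libraries to 2263. Per kilobase of exon, PDK1 took 43.0% of the PDK1, PDK2 and PDK3 sum in BOR 2, against 18.1% to 24.4% elsewhere.

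**Figure D2:**
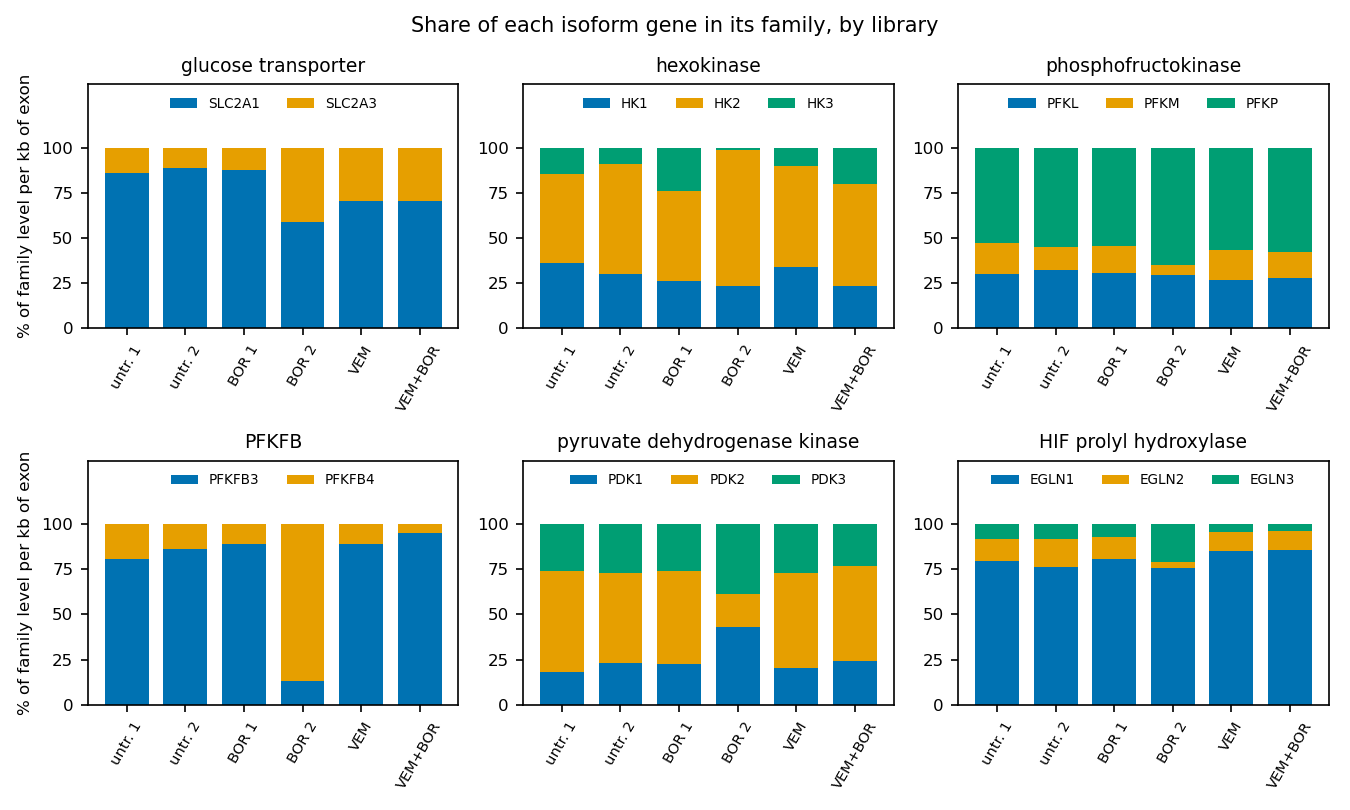
Bars show, for 6 enzyme or transporter groups and each of the 6 libraries, the percent of the summed level per kilobase of exon that each gene contributes. Only the genes drawn enter a sum, so a share need not be one of the whole family. SLC2A6, left out, was at 184 and 84.2 per kilobase in the untreated libraries, against 43.5 and 47.4 for SLC2A3. In BOR 2 PFKFB4 takes 86.9% of the PFKFB3 and PFKFB4 pair, against 4.90% to 19.6% elsewhere. SLC2A3 takes 41.3% of the SLC2A1 and SLC2A3 pair in BOR 2, against 11.2% to 29.5% elsewhere. PFKM is at 5.56% of the phosphofructokinases there, against 12.6% to 16.8% elsewhere.

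The gene for the HIF alpha subunit moved against its known targets. HIF1A (ENSG00000100644, chr14:61695513-61748259, plus strand) was 1340 and 1038 in the untreated libraries, 1466 in BOR 1, 119 in BOR 2, 879 in VEM and 1316 in VEM+BOR. BOR 2 was far below all other libraries, VEM was below both untreated ones, and BOR 1 was above both. In BOR 2 it fell by 3.30 on the log2 scale (SE 0.37, limma adjusted p = 0.000387), the 406th lowest of 15462 genes. On the deposited scale of the BOR table, the antisense RNA HIF1A-AS2, picked after its values were seen, was 0 and 3.80 in the untreated libraries, 0.895 in BOR 1 and 50.9 in BOR 2. The library does not mark strand in the labels' protocol, and 5.14% of HIF1A exon bases are shared with other genes. Those are AL137129.1 and HIF1A-AS1, and HIF1A-AS2 is not among them. RNA does not show the amount of HIF1A protein, which is set mainly by its degradation.

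Both EGLN genes, the oxygen-sensing hydroxylases that mark HIF for destruction and are HIF targets themselves, rose in BOR 2. EGLN3 (ENSG00000129521, chr14:33924231-34462774, minus strand) was 113 and 103 in the untreated libraries, 99.98 in BOR 1, 1668 in BOR 2, 66.4 in VEM and 56.9 in VEM+BOR. It rose by 3.94 in BOR 2 (SE 0.40, limma adjusted p = 0.000294), while BOR 1, VEM and VEM+BOR were all below both untreated libraries. EGLN1 (ENSG00000135766, chr1:231363751-231425044, minus strand), the main hydroxylase of HIF1A, was 1073 and 960 in the untreated libraries, 1161 in BOR 1, 5981 in BOR 2, 1244 in VEM and 1370 in VEM+BOR. It lay above both untreated libraries in all 4 treated ones and rose by 2.56 in BOR 2 (SE 0.35, limma adjusted p = 0.000768). EGLN3 took 20.9% of the EGLN1, EGLN2 and EGLN3 sum per kilobase in BOR 2, against 3.52% to 8.26% elsewhere.

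Both secreted factors of the list rose in BOR 2. ADM (ENSG00000148926, chr11:10304680-10307397, plus strand) encodes adrenomedullin, a vasodilator peptide. It had 3 and 5 reads in the untreated libraries, 1 in BOR 1, 2835 in BOR 2, 8 in VEM and 16 in VEM+BOR. The ratio of BOR 2 to the untreated libraries was 1030 (95% exact counting interval 522 to 2389), the highest change of 15462 genes. ADM passed the filter on low values only through BOR 2, so it had to differ there, and it was not tested for BOR 1 alone, VEM or VEM+BOR. VEGFA (ENSG00000112715, chr6:43770184-43786487, plus strand), the growth factor of blood vessels, was 1517 and 1544 in the untreated libraries, 1886 in BOR 1, 18424 in BOR 2, 2808 in VEM and 3526 in VEM+BOR. The untreated libraries were close together and all 4 treated libraries were above them, with a BOR 2 change of 3.59 (SE 0.37, limma adjusted p = 0.000297).

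Regulators inside the cell rose in BOR 2 over a wide range. BHLHE40 (ENSG00000134107, chr3:4979116-4985323, plus strand), a transcriptional repressor, was 175 and 239 in the untreated libraries, 181 in BOR 1, 11800 in BOR 2, 228 in VEM and 300.0 in VEM+BOR. BOR 1 and VEM lay between the untreated libraries, and BOR 2 rose by 5.85 (SE 0.37, limma adjusted p = 3.70e-05). MXI1, which opposes MYC, and KDM3A, a histone demethylase, rose by 1.92 and 1.85. BNIP3 (ENSG00000176171, chr10:131966455-131982013, minus strand), a receptor for the removal of mitochondria by autophagy, was 1120 and 1285 in the untreated libraries, 1176 in BOR 1, 27431 in BOR 2, 1051 in VEM and 1193 in VEM+BOR. It rose by 4.52 in BOR 2 (SE 0.37, limma adjusted p = 0.000133), and its relative BNIP3L rose by 2.29. ANKRD37 (ENSG00000186352, chr4:185396021-185400628, plus strand), an ankyrin repeat protein, was 61.3 and 106 in the untreated libraries, 67.6 in BOR 1, 2600 in BOR 2, 62.7 in VEM and 99.1 in VEM+BOR. It rose by 5.00 in BOR 2 (SE 0.46, limma adjusted p = 0.000187), but 35.2% of its exon bases are shared with UFSP2 on the other strand.

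NDRG1 (ENSG00000104419, chr8:133237171-133302022, minus strand), a stress-responsive gene of differentiation, was 4575 and 2168 in the untreated libraries, 4522 in BOR 1, 13218 in BOR 2, 6042 in VEM and 5340 in VEM+BOR. Its untreated libraries differed by 1.08 on the log2 scale, and it rose by 2.07 in BOR 2 (SE 0.49, limma adjusted p = 0.0117), the weakest call of the hypoxia list. P4HA1 and P4HA2, the catalytic subunits of collagen prolyl hydroxylase, rose by 3.35 and 2.98. P4HA1 was 727 and 734 in the untreated libraries and 7428 in BOR 2.

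**Figure D3:**
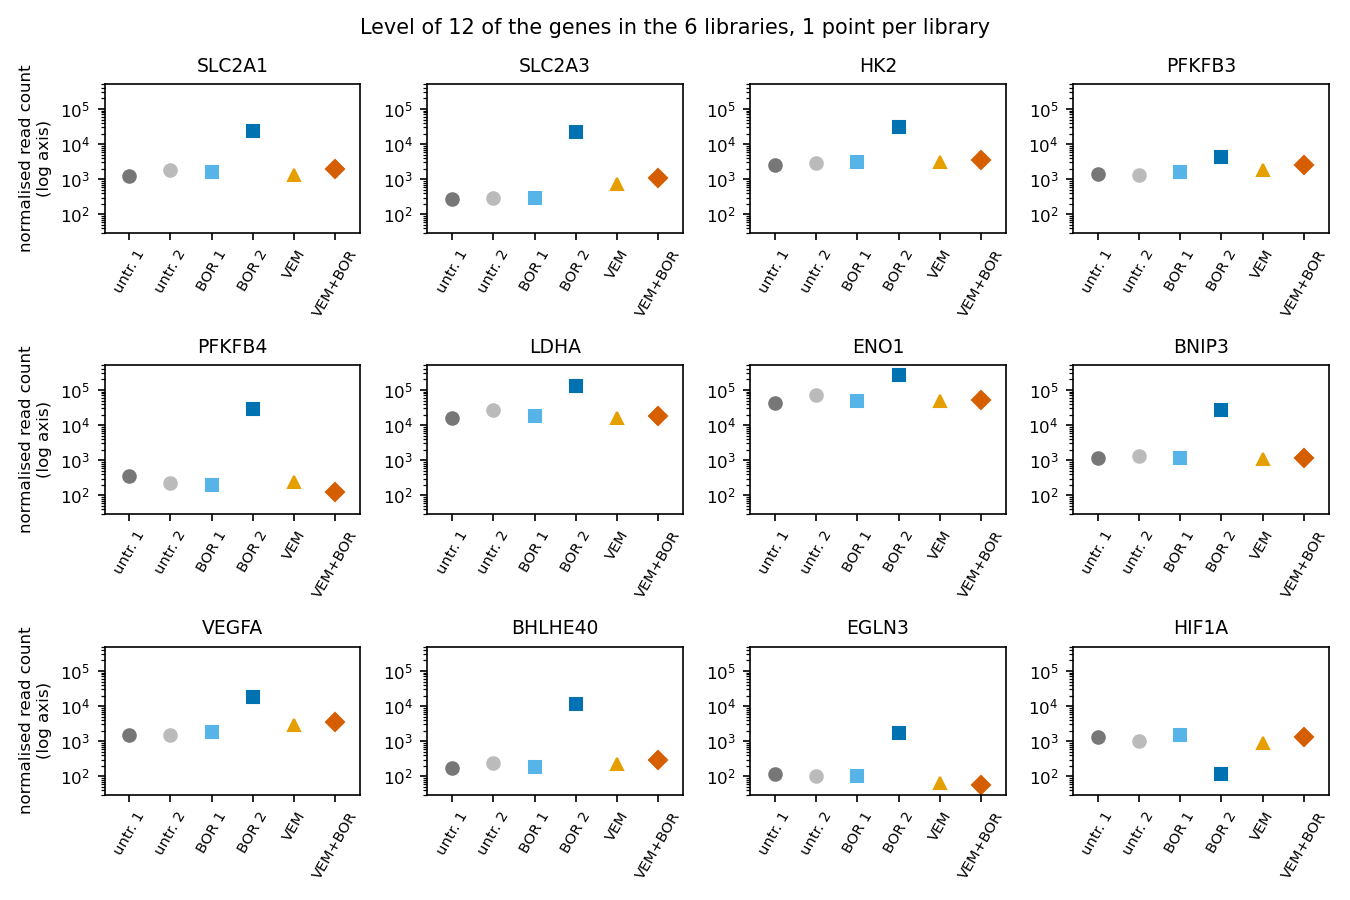
Each panel is 1 gene and each point 1 library, with the normalised read count on a log axis shared by all panels. BOR 2 is highest for 11 of the 12 genes and lowest for HIF1A (119 against 879 to 1466), and SLC2A3, PFKFB3 and VEGFA lie above both untreated libraries in VEM and VEM+BOR.

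Set side by side, the hypoxia genes had the larger median difference in BOR 2, 3.16 on the log2 scale against 2.54 for the glycolysis genes and 0.041 over all 15462 genes. Without HIF1A the hypoxia median was 3.34. The middle of each list overlapped, with quartiles of 1.86 to 3.35 for glycolysis and 2.12 to 4.37 for hypoxia, and no test was made between the lists. The glycolysis genes contributed most of the RNA, at 4.28% of all reads in BOR 2 against 0.423% for the hypoxia genes. In BOR 1 the medians were -0.071 and 0.047. The glycolysis value is smaller than the median difference of 0.15 between the untreated libraries. Of the glycolysis genes 3 were above and 5 below both untreated libraries in BOR 1, and of the hypoxia genes 5 and 3, against 29.9% and 20.7% of all genes.

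Genes of the same pathways outside the 36 show how far the pattern reached in BOR 2. Of 30 further glycolysis and carbon genes tested, 2 rose and 2 fell, with a median of 0.56 over the 30 genes on the common scale. PGM1, which links glycogen to glycolysis, was 1207 and 1238 in the untreated libraries and 4753 in BOR 2 (log2 change 1.96). PDK3, a pyruvate dehydrogenase kinase, was 191 and 158 in the untreated libraries and 679 in BOR 2 (log2 change 1.96). The pyruvate and lactate importer SLC16A7 was 712 and 493 in the untreated libraries, 945 in BOR 1 and 114 in BOR 2, a fall of 2.37 in BOR 2. RPE, a pentose phosphate enzyme named after its values were seen, fell by 1.12, and PFKFB1 was low throughout at 20.3 to 62.1. These shares lie near or under the background of 9.74% higher and 16.3% lower.

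Of 29 further hypoxia pathway genes tested in BOR 2, 17 rose and 0 fell by limma, where 9.74% of all genes rose and 16.3% fell. With library totals as the scale, 15 rose and 2 fell. DDIT4, an inhibitor of mTORC1 signalling, was 193 and 148 in the untreated libraries, 188 in BOR 1 and 23294 in BOR 2 (log2 change 7.10). TMEM45A, a membrane protein, was 162 and 271 in the untreated libraries, 162 in BOR 1 and 8475 in BOR 2 (log2 change 5.33). STC2, a secreted glycoprotein, was 853 and 1161 in the untreated libraries, 1184 in BOR 1 and 27256 in BOR 2 (log2 change 4.78). These genes followed the same split between the BOR libraries as the 36. Other genes for HIF subunits or for proteins that act with or on HIF, named after their values were seen, were mixed in BOR 2. EPAS1, the gene for the HIF2 alpha subunit, differed by 1.32 (SE 0.85), not past the limma threshold. The coactivator CREBBP and the modulator CITED2 rose by 1.59 and 1.21 (limma adjusted p = 0.00833 and 0.0279). VHL differed by -0.046, the HIF partner ARNT by 0.17, HIF1AN by -0.43, EGLN2 by 0.58 and the coactivator EP300 by 0.99, none past the limma threshold.

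**Figure D4:**
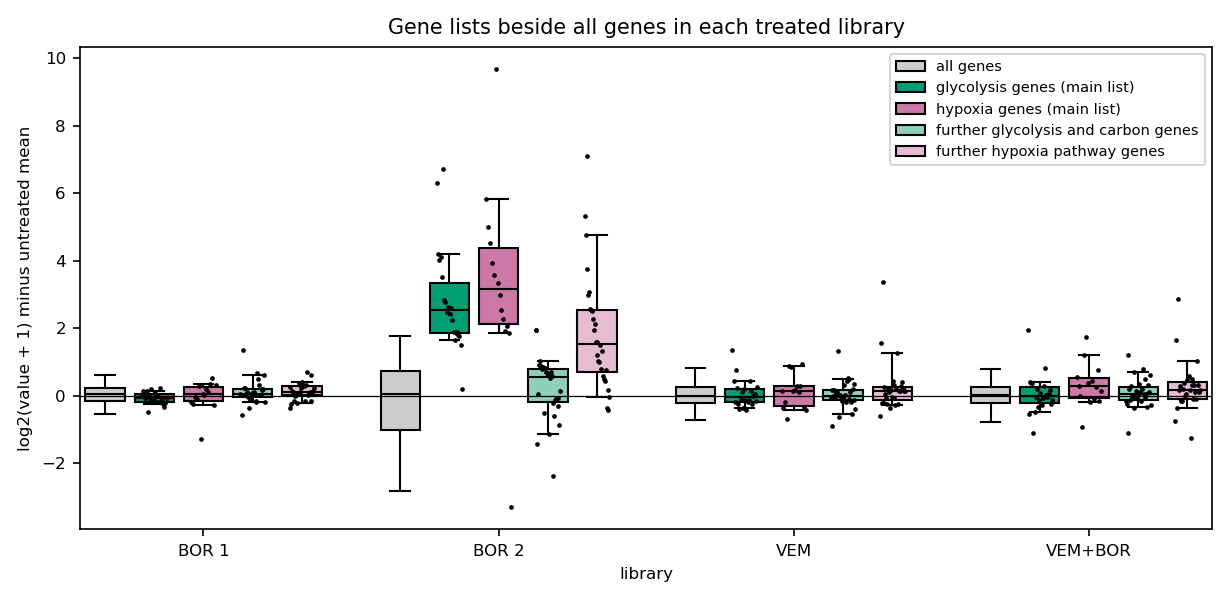
Boxes give the median and quartiles, and whiskers the 5th to 95th percentile, of differences in log2(value + 1) from untreated cells for each gene list and for all genes in each treated library, and dots are single genes. In BOR 2 the medians are 2.54 (glycolysis), 3.16 (hypoxia), 0.56 (further glycolysis), 1.55 (further hypoxia) and 0.041 (all genes), and in the other 3 libraries the list medians lie between -0.071 and 0.28.

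The second comparison set VEM against the untreated libraries. None of the 35 genes tested passed the limma threshold, against 0.0382% of 15689 genes higher and 0.00637% lower. At an unadjusted limma p under 0.05, 236 of the 15689 genes were higher and 163 lower, and of the 35 genes 3 were higher and 0 lower. Those 3 were SLC2A3, with a log2 change of 1.35 (SE 0.41, limma adjusted p = 0.713), VEGFA (0.87) and NDRG1 (0.93). SLC2A3 and VEGFA were above both untreated libraries by more than their spread, at 719 against 268 and 292, and at 2808 against 1517 and 1544. The median change was -0.051 over the 22 glycolysis genes and 0.14 over the 13 hypoxia genes tested. Of the glycolysis genes 7 were above and 5 below both untreated libraries, and of the hypoxia genes 5 and 4, where 30.3% of all genes were above and 27.6% below. ENO2 (0.77), PFKFB3 (0.42), ALDOC (0.42), EGLN3 (-0.70), HIF1A (-0.43), LDHA (-0.43) and ALDOA (-0.38) had the next largest log2 differences, none past the threshold. At least 2-fold differences from the untreated mean were rare in VEM. SLC2A3 was the 1 gene of the 36 that high (3.18% of all genes) and 0 were that low (2.13%). The authors' deposited table gives 16 genes past an adjusted p of 0.05 for VEM and none of the 36.

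The third comparison set VEM+BOR against the same untreated libraries. SLC2A3 was the 1 gene of the 35 tested that passed by limma, with 0.173% of 15606 genes higher and 0.0192% lower. It was 1075 against 268 and 292, 3.84-fold above the untreated mean, with a log2 change of 1.92 (SE 0.40, limma adjusted p = 0.0475). The authors' deposited table gives SLC2A3 an adjusted p of 0.00387 there. The limma call was lost with a pseudocount of 0.5 (adjusted p = 0.0522) with genes down to a mean of 1 (adjusted p = 0.999) and with all 6 libraries in 1 fit, where the SE was 2.27. VEGFA was 3526 against 1517 and 1544, a log2 change of 1.19 (SE 0.37, limma adjusted p = 0.478).

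Other genes of the lists went in both directions in VEM+BOR, none past the threshold. PFKFB4, at 127 against 349 and 218, had a log2 difference of -1.13, and EGLN3, at 56.9 against 113 and 103, one of -0.92. PFKFB3 differed by 0.81, NDRG1 by 0.75, BHLHE40 by 0.54, EGLN1 by 0.42, ALDOC by -0.54 and ALDOA by -0.50. PFKFB4 and EGLN3, which rose in BOR 2, were thus below both untreated libraries in VEM+BOR. The medians were -0.0077 for glycolysis and 0.26 for hypoxia. Of the genes tested, 7 glycolysis and 6 hypoxia genes were above both untreated libraries (30.1% of all genes) and 5 and 1 below (27.9%). On the common scale and with ADM counted, 7 of 14 hypoxia genes were above and 1 below, against 31.4% and 26.6% of all genes. SLC2A3, VEGFA and ADM were at least 2-fold above the untreated mean (3.1% of all genes) and PFKFB4 at least 2-fold below (3.05%). BOR, VEM and VEM+BOR share the untreated libraries, so their differences are not independent of each other. VEM+BOR and VEM, with 1 library each, were not tested against each other. Set side by side, SLC2A3 was 1075 and 719, PFKFB3 2462 and 1876, VEGFA 3526 and 2808, and HIF1A 1316 and 879.

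Few of the further pathway genes passed in VEM or VEM+BOR. DDIT4 did in both, at 1758 in VEM (log2 change 3.37, limma adjusted p = 0.00209) and 1238 in VEM+BOR (2.85, limma adjusted p = 0.00307). Both calls were lost, with 0 genes of that list called by limma, when genes down to a mean of 1 were tested and when all 6 libraries entered 1 fit. STC2 was 2960 in VEM and 3147 in VEM+BOR against 853 and 1161 (limma adjusted p = 0.336 and 0.0881). EPAS1, the HIF2 alpha gene, was 253 in VEM against 262 and 41.2, inside the untreated range. ENO3, the muscle enolase, and SLC2A4, the insulin-responsive transporter, differed by -0.64 and -0.56 in VEM, neither past the threshold. TMEM45A was 137 in VEM, PFKFB1 29.5 in VEM and 25.7 in VEM+BOR, and SLC16A7 1036 in VEM+BOR. Of the further glycolysis genes 0 passed by limma in either comparison. At an unadjusted limma p under 0.05, 1 of 30 was higher in VEM and 1 of 31 in VEM+BOR. Over all genes these were 236 of 15689 in VEM and 343 of 15606 in VEM+BOR. The mitochondrial enzyme PCK2 was 5664 in VEM and 3713 in VEM+BOR against 2509 and 2044. HK3, the hexokinase of myeloid cells, was 412 and 223 in the untreated libraries, 779 in BOR 1, 316 in BOR 2, 301 in VEM and 701 in VEM+BOR. HK3 was thus above both untreated libraries in BOR 1 and VEM+BOR and between them in BOR 2 and VEM. The iron importer TFRC was 13812 and the scaffold gene PPFIA4 202 in VEM+BOR, against 5744 and 7836 and against 753 and 302.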

How the data were processed

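The 6 SKM-1 RNA libraries were grouped by their labelled treatment, and their replicate numbers, given in accession order, pair nothing. Whether a group's libraries are separate cultures is not stated, so p-values measure a spread that may be technical. The submitters' processing notes list edgeR 3.22.5, DESeq2 1.20.0, featureCounts 1.5.0-p3, HISAT2 2.0.5 and CASAVA, whose roles are not stated. The sources used here name no genome build, and coordinates of the 36 genes equal GENCODE 29 (GRCh38).

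The authors deposited 3 tables of normalised signal per gene and library, in which each library's read counts share 1 divisor. The authors' own log2 fold changes and p-values were used only where their table is named. All values were whole multiples of their column's step within 0.001 (100% whole), so reads were recovered. The VEM step, 0.991, was taken as too near 1 to rely on this, so no count test used VEM. The common scale, the depth and the ADM reads given for VEM do use its recovered reads. Depth was 17252404 to 18507606 reads, and low-count genes are less precise.

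The test was limma 3.58.1 (R 4.3.3) on log2(value + 1) with an intensity trend, two-sided, within 1 table, for genes averaging at least 10. The threshold was 0.05 after Benjamini-Hochberg adjustment. Log2 changes are on that scale, which understates changes of low genes. A lone treated library is assumed to vary like the untreated pair. Levels from the 3 tables were put on 1 scale with median-of-ratios factors from 23519 genes. Alternatives were edgeR 4.0.16, DESeq2 1.42.0, other pseudocounts, filters and scalings, and fits without each library. Fits were tested on simulated data in which every library had the spread of the untreated pair. Of 200 genes changed 2-fold, limma called 0% for BOR, 0% for VEM and 2% for VEM+BOR. For a 4-fold change these were 79.5%, 52.5% and 54.5%. The BOR libraries differ more than the simulated ones, and the fit of BOR 2 alone was not simulated. The genes and lists were chosen with earlier results of these data known. Genes given in every library are those past the threshold in any comparison and the 10 with the largest change in each, and of each further list the genes past the threshold and up to 4 with the largest change. HK2, ENO1, PFKM and the others so shown were added after their values were seen. One gene that this rule names is not reported here.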

Additional observations from a re-analysis of the deposited data

How the results depend on the processing

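For the BOR pair, DESeq2 called 18 genes and 2 of the 36 where limma called 0 and 0. Leaving out 1 library at a time gave 0 to 4008 genes, 0 to 32 of the 36, a glycolysis median of -0.067 to 2.54 and a hypoxia median of 0.072 to 3.17, the upper end of each without BOR 1 and the lower end without BOR 2. Without BOR 2 the sign turned for 19 of the 35 genes tested in both fits, 13 of them glycolysis genes. Among the 10 genes with the largest change in the pair these were 5, whose values without 1 library ran from -0.46 to 6.71 (PFKFB4), -0.062 to 4.10 (ENO2), -0.25 to 5.00 (ANKRD37), -0.025 to 4.52 (BNIP3) and -0.18 to 5.85 (BHLHE40). For BOR 2 alone, limma called 4008 genes and 32 of the 36, and with genes down to a mean of 1 it called 0 and 0 over 21961 genes tested.

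For VEM the 7 genes called became 0 with a mean of at least 1, 40 with library totals, 0 with all 6 libraries in 1 fit and 0 to 17 in that fit without 1 library. None of the 36 was called in any of these. The glycolysis median ran from -0.17 to 0.073 without 1 library. The hypoxia median was 0.20 with library totals and 0.095 to 0.21 without 1 library. In the joint fit ALDOC turned to -0.079 without untreated 2.

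For VEM+BOR the 30 genes called became 0 with a mean of at least 1, 54 with TMM, 89 with library totals, 0 with all 6 libraries in 1 fit, 85 with edgeR, 60 with DESeq2 and 0 to 50 without 1 library in the joint fit. SLC2A3, the 1 gene of the 36 called, was lost (0 called) with a pseudocount of 0.5, with a mean of at least 1 and with all 6 libraries in 1 fit, where counts ran from 0 to 1 without 1 library. The glycolysis median ran from -0.03 to 0.18 without 1 library. The hypoxia median was 0.20 with edgeR and 0.25 to 0.29 without 1 library. The causes of these changes were not tested. The joint fit takes its spread from the BOR pair as well, whose libraries differ widely.

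Over the 10 genes with the largest change in each comparison, 316 values kept their direction and side of the threshold, 12 passed it only under the alternative, 5 lost it and 6 turned sign. No paired analysis was possible because replicate numbers come from accession order. With 1 VEM and 1 VEM+BOR library, a gene that did not pass is not shown to be unchanged.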
